A study of Mus musculus with 12 samples.

Results

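Ifngas1, Morrbid, Mirt2 and AW112010 are long non-coding RNAs (lncRNAs) of the mouse that have been studied in cells of the immune system. They were chosen by name, as array probes carrying a RefSeq accession that RefSeq assigns to 1 of these genes, and make up 4 of 4288 genes named through RefSeq on the array. Together they have 5 probes: Morrbid has 2 and the others 1 each. The probe of highest mean over the 12 arrays stands for each gene, and all 4 genes passed the filter on dim probes.

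Spleens came from female BALB/c mice, 6 weeks old at the start, and injections into the peritoneum were given on days 1, 3 and 5. The groups were OVA spleens of day 28 (4 arrays), saline control spleens of day 28 (2 arrays), OVA spleens of day 14 (4 arrays) and saline control spleens of day 14 (2 arrays). OVA is ovalbumin, an egg-white protein to which mice become sensitised, and was given at 2 mg/kg without any other agent named in the labels. No allele or transgene is named for any group, and the labels do not say whether an array holds 1 mouse or a pool. The p-values below therefore set group differences against the variation between these arrays only, which need not be that between mice. A spleen is a mixture of B cells, T cells, macrophages, granulocytes and red cell precursors, and in such RNA fewer cells of a type and less RNA per cell cannot be told apart. None of 39 marker genes of these cell types had a named probe, so the makeup of the spleens was not checked.

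Each of these lncRNAs has a known setting. Ifngas1, also called Tmevpg1, is transcribed near the gene of the cytokine interferon gamma and is known in mouse T helper 1 cells, where it raises interferon gamma expression. Morrbid prolongs the life of neutrophils, eosinophils and classical monocytes by holding down its neighbour Bcl2l11, which encodes the death-promoting protein Bim. Mirt2 is induced by bacterial lipopolysaccharide in macrophages and dampens signalling through the ubiquitin ligase TRAF6. AW112010 is induced by inflammatory stimuli in macrophages and T cells and, although annotated as non-coding, was shown to be translated into a small protein in mouse macrophages. The series names its OVA mice allergic. OVA against saline therefore compares spleens of mice named allergic with those of saline mice, and day 28 against day 14 compares the days of sampling. Allergy itself was not measured here.

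In the GRCm38.p6 annotation Ifngas1 spans chromosome 10 from 118502035 to 118556525 on the minus strand, and Ifng lies on the plus strand 56.1 kb from it. Morrbid spans chromosome 2 from 128298663 to 128429351 on the minus strand, 136.1 kb from Bcl2l11, and it overlaps the lncRNA gene Gm14010 on the other strand. Mirt2 spans chromosome 15 from 76266787 to 76269839, within the span of the protein-coding gene Spatc1. AW112010 spans chromosome 19 from 11047612 to 11050566 on the minus strand among genes of the Ms4a family of membrane proteins, the nearest being Ms4a8a at 16.9 kb and Ms4a18 at 29.6 kb. Whether a probe of Morrbid or Mirt2 also reads an overlapping gene was not tested.

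**Figure D1:**
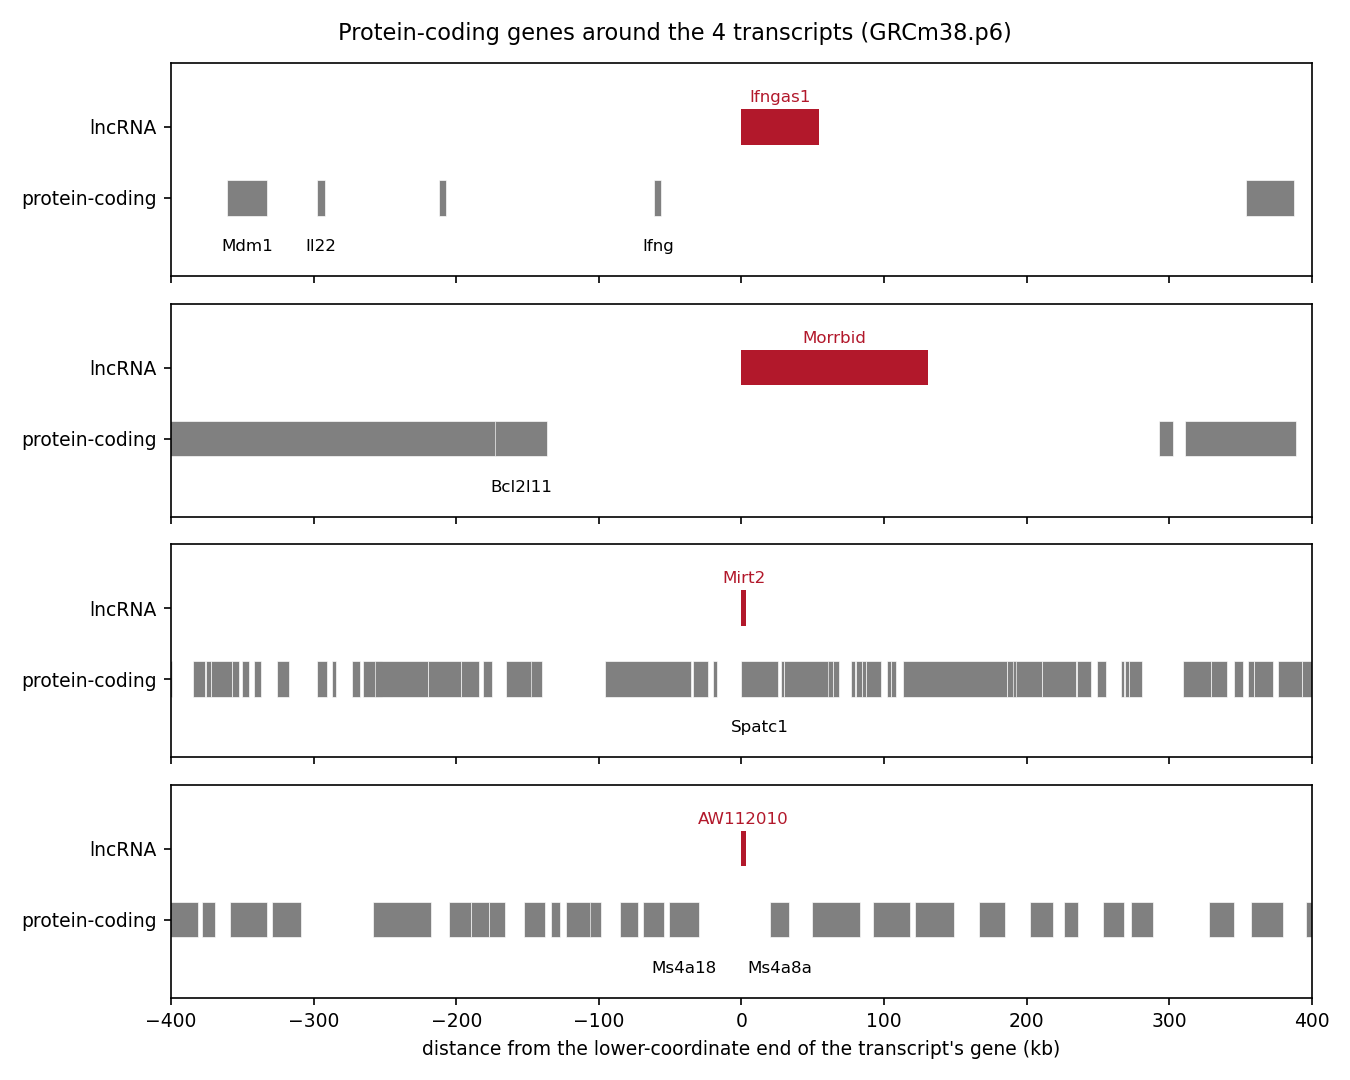
Position of each lncRNA gene (red) and of the protein-coding genes around it (grey), as the distance in kb from the lower-coordinate end of the lncRNA gene. Ifng lies 56.1 kb from Ifngas1 and Bcl2l11 136.1 kb from Morrbid, whereas Mirt2 lies inside Spatc1.

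The start regions of 3 of the genes are shown because they allow the known inducers of these transcripts to be set beside the letters at their starts. Each line gives 250 bases before and 50 bases after the transcription start, 5′ to 3′ on the strand of the gene, from RefSeq (GRCm38.p6). They are chr10:118556476-118556775 (Ifngas1), chr2:128429302-128429601 (Morrbid) and chr19:11050517-11050816 (AW112010), all on the minus strand. Capitals mark motif matches.
Ifngas1: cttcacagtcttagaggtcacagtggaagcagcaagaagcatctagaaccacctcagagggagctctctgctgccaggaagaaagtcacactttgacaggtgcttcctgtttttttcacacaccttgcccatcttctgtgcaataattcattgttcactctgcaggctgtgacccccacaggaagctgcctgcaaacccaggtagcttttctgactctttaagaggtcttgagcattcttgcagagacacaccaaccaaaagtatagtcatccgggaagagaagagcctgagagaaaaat
Morrbid: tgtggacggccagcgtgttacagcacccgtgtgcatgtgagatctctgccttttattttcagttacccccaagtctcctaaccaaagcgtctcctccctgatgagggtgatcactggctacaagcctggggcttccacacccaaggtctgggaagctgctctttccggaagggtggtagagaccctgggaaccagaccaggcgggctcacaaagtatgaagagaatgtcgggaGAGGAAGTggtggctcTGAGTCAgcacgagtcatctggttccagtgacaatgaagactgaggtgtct
AW112010: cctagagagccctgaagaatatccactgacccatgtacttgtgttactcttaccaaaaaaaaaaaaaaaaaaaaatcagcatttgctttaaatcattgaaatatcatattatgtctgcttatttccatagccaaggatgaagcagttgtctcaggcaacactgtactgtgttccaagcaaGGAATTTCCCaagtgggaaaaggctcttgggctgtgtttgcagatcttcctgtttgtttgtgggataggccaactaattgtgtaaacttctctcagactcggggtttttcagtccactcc
Both strands were searched for 8 motifs. An AP-1 site, bound by Fos and Jun proteins, was read as TGANTCA. A STAT site was read as TTCNNNGAA, a T-box site as AGGTGTGA and a PU.1 site as GAGGAAGT. A GATA site was read as AGATAA, the motif bound by GATA factors of T cells and red cell precursors. The core promoter motif known as the TATA box was read as TATAAA. The interferon-stimulated response element and the NF-kB consensus completed the search. The last 2 were searched after the sequences had been seen. Morrbid held a PU.1 match at bases 234 to 241, a motif that 3.2% of 32851 start regions hold, and an AP-1 match at bases 250 to 256, which 7.81% hold. AW112010 held an NF-kB match at bases 181 to 190, which 4.51% hold. Ifngas1 held none of the 8 motifs in this window. No matches overlapped, and a match is a stretch of letters, not a binding site.

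Levels below are the log2 of the processed signal minus that of the array's 75th percentile, so a value of 0 is a probe at that percentile. Each value is that of 1 probe, and levels of different probes are not comparable. The 12 arrays lay on 3 slides: 1 held all 4 controls, 1 the OVA arrays of day 14 and 1 the OVA arrays of day 28. Each slide had its own scan time, so slide, scan and group cannot be told apart except between the control groups, which lie on 1 slide. On it the controls of day 14 held array positions 1 and 2, and those of day 28 held positions 3 and 4. Day and array position therefore cannot be told apart among the controls alone. The 75th percentile was 484.2 to 549.4 signal units on the OVA arrays of day 28, 267.4 to 287.7 on those of day 14 and 316.4 to 370.8 on the controls, and 57.5% to 80.0% of spots were well above background. No spot of the 4 genes was flagged as an outlier or as saturated on any array. The 224 to 230 spots around each of them departed from their own medians over the arrays by -0.15 to 0.13 (log2, median per array).

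Across 5 comparisons, 1 of the 20 tests of these genes passed the threshold, an adjusted p under 0.05 by limma. It was AW112010, which fell in OVA spleens of day 28 relative to OVA spleens of day 14. No gene passed for OVA against control on either day, for the controls of day 28 against those of day 14, or for the difference between days in the OVA effect. Of the tests that did not pass, the unadjusted p was under 0.05 for Mirt2 at day 14 (0.0449, limma) and between the OVA groups (0.0319). Of all 72515 features tested, 14.2% were called for OVA against control at day 28 (7.5% higher, 6.65% lower) and 0.0607% at day 14 (0.0552% higher, 0.00552% lower). For OVA day 28 against OVA day 14 it was 33.3% (15.8% higher, 17.5% lower), for the controls 0.00138% (all higher) and for the difference between days 3.04% (1.75% higher, 1.29% lower). The 1 of 4 genes called between the OVA groups is no more than the share of all features called there. In the same order of comparisons, the median log2 differences of the 4 genes were 0.09, -0.10, 0.16, -0.16 and 0.16, beside -0.03, 0.03, -0.04, 0.03 and -0.06 over all features.

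**Figure D2:**
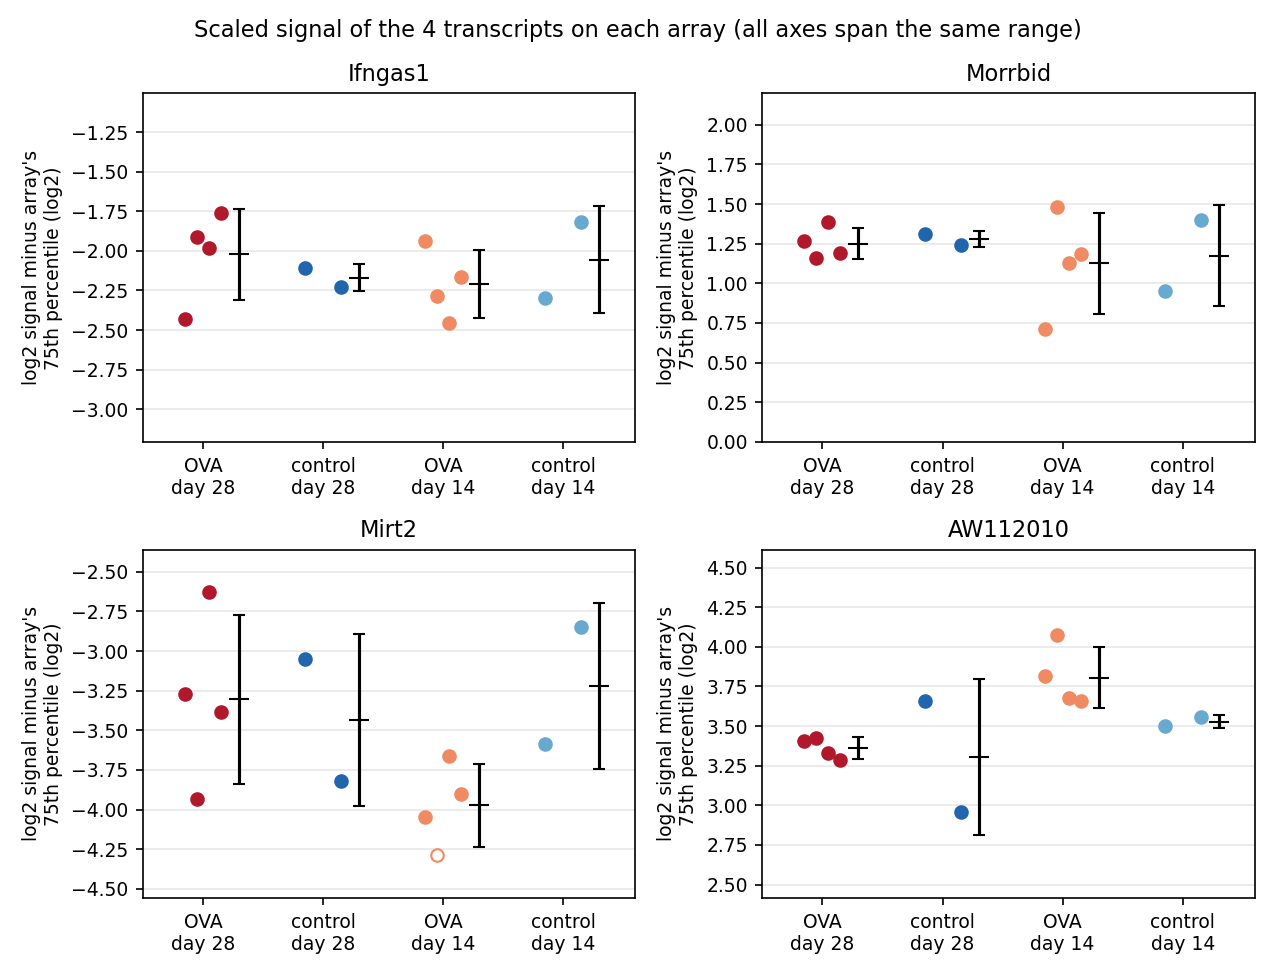
Scaled log2 signal of each gene on each array (points, replicates from left to right) with the group mean and SD (bars), for OVA and control spleens of days 28 and 14; the open point is not well above background. The OVA arrays of day 28 lie below those of day 14 in AW112010, and the OVA arrays of day 14 lie below both controls of that day in Mirt2.

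Ifngas1, the neighbour of the interferon gamma gene, had levels of -2.43, -1.91, -1.98 and -1.76 in OVA spleens and of -2.11 and -2.23 in control spleens of day 28. On day 14 its levels were -1.94, -2.28, -2.45 and -2.17 in OVA spleens and -2.30 and -1.82 in control spleens. The groups overlapped in all 4 pairwise comparisons: OVA replicate 1 was the lowest array of day 28 and the highest OVA array of day 14. The mean was -2.02 ± 0.29 over the OVA arrays (SD, n = 4) and -2.17 ± 0.09 over the control arrays (SD, n = 2) of day 28, a log2 difference of 0.15 ± 0.20 (SE, adjusted p = 0.666, limma). Its 95% confidence interval was -0.29 to 0.58.

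At day 14 the Ifngas1 mean was -2.21 ± 0.22 over the OVA arrays (SD, n = 4) and -2.06 ± 0.34 over the control arrays (SD, n = 2), a difference of -0.15 ± 0.20 (SE, adjusted p = 0.769, limma) with an interval of -0.59 to 0.28. OVA spleens of day 28 differed from those of day 14 by 0.19 ± 0.16 (SE, interval -0.17 to 0.54, adjusted p = 0.398, limma), and the controls of day 28 from those of day 14 by -0.11 ± 0.23 (SE, adjusted p = 0.898). The OVA effect at day 28 minus that at day 14 was 0.30 ± 0.28 (SE, adjusted p = 0.565, limma). The order of the group means ran from OVA day 28 through control day 14 and control day 28 to OVA day 14, with the arrays of neighbours in that order overlapping. The probe has 2 spots per array, which differed by 0.11 (median over 12 arrays) and by up to 0.31 on the log2 scale, and its signal of 49.3 to 163 units carried a scanner error of 10.3% to 17.1%.

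Ifng itself, as well as Il22 and Mdm1 farther along the same side, had no named probe. Within 500 kb of Ifngas1, 3 of 29 annotated genes had a named probe that passed the filter, all lncRNAs without an assigned role. At day 28 Gm40775 (log2 difference 0.48) was higher in OVA than in control spleens (adjusted p = 0.00815, limma), and Gm33624, 429.4 kb away on the other side, was higher by 0.73 (adjusted p = 0.0119). The third, Gm32663, differed by -0.07 (adjusted p = 0.873). At day 14 none of the 3 passed, with differences of 0.04, 0.16 and 0.16. In OVA spleens of day 28 relative to those of day 14, Gm40775 rose by 0.34 (adjusted p = 0.00554, limma) and Gm33624 by 0.60 (adjusted p = 0.00368), while Gm32663 differed by -0.18 (adjusted p = 0.471). Of all features, 7.5% were called higher for OVA against control at day 28 and 15.8% between the OVA groups. The groups compared here lie on different slides.

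Morrbid, the regulator of myeloid cell survival, had levels of 1.26, 1.16, 1.38 and 1.19 in OVA spleens and 1.31 and 1.24 in control spleens of day 28. On day 14 they were 0.71, 1.48, 1.13 and 1.18 in OVA and 0.95 and 1.40 in control spleens. The 6 arrays of day 28 lay within the span of those of day 14, where OVA replicate 1 and control replicate 1 were the lowest of their groups. The means were 1.25 ± 0.10 over the OVA arrays (SD, n = 4) and 1.28 ± 0.05 over the control arrays (SD, n = 2) of day 28, a difference of -0.03 ± 0.19 (SE, adjusted p = 0.941, limma). The interval of -0.44 to 0.38 corresponds to folds of 0.739 to 1.30.

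At day 14 Morrbid averaged 1.13 ± 0.32 over the OVA arrays (SD, n = 4) and 1.17 ± 0.32 over the control arrays (SD, n = 2), a difference of -0.05 ± 0.19 (SE, adjusted p = 0.934, limma; interval -0.46 to 0.36). OVA spleens of day 28 differed from those of day 14 by 0.12 ± 0.15 (SE, interval -0.21 to 0.46, adjusted p = 0.561, limma), and controls of day 28 from those of day 14 by 0.10 ± 0.22 (SE, adjusted p = 0.901). The OVA effect at day 28 minus that at day 14 was 0.02 ± 0.26 (SE, adjusted p = 0.974, limma). The means ran from control day 28 through OVA day 28 and control day 14 to OVA day 14, with the arrays of neighbours overlapping.

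The other Morrbid probe, designed to transcript NR_028589, read 18.2 to 82.5 signal units with a scanner error of up to 32.6%. On OVA day 14 replicate 2 it was not well above background. A separate fit took every probe that passed the filter on dim probes. In that fit the second Morrbid probe did not pass for OVA against control spleens either. The differences were 0.00 ± 0.20 (SE, adjusted p = 0.996, limma) at day 28 and 0.00 ± 0.20 (SE, adjusted p = 0.994) at day 14. OVA spleens of day 28 differed from those of day 14 by 0.34 ± 0.16 on this probe (SE, adjusted p = 0.128, limma), and controls of day 28 from those of day 14 by 0.35 ± 0.23 (SE, adjusted p = 0.621). Both probes had OVA and control means within 0.05 of each other on each day, and each had higher means at day 28 than at day 14 in OVA and in control spleens, none past the threshold.

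**Figure D3:**
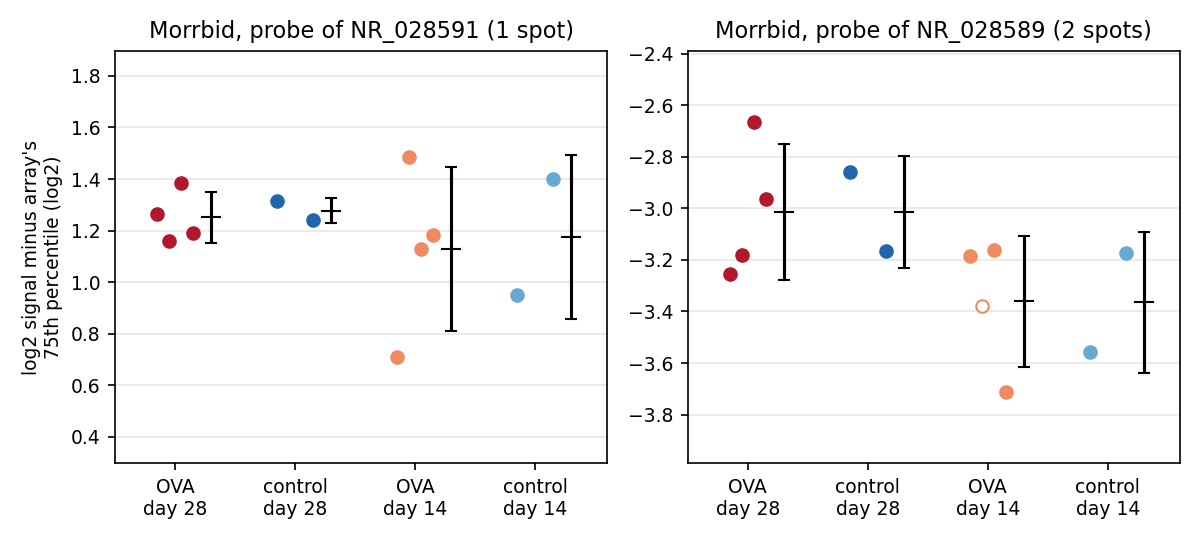
Scaled log2 signal of the 2 Morrbid probes on each array (points) with group mean and SD (bars), for OVA and control spleens of days 28 and 14; the open point is not well above background and the axes differ in position but not in span. OVA and control means lie within 0.05 of each other on each day for both probes.

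Bcl2l11, the Morrbid target, had no named probe. Of 22 annotated genes within 500 kb, 5 lncRNAs were tested, and none passed for OVA against control on either day. Gm39928, 60.8 kb from Morrbid, rose by 0.60 in OVA spleens of day 28 relative to those of day 14 (adjusted p = 0.0252, limma). In that comparison the 4 others (Gm39927, Gm14009, Gm39929 and Gm39931) ranged from -0.32 to 0.28 and did not pass, and 15.8% of all features were called higher.

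Mirt2, the lipopolysaccharide-induced brake on TRAF6, had levels of -3.27, -3.94, -2.63 and -3.38 in OVA spleens and of -3.05 and -3.82 in control spleens of day 28. On day 14 they were -4.04, -4.29, -3.66 and -3.90 in OVA spleens and -3.59 and -2.85 in control spleens. All 4 OVA arrays of day 14 lay below both controls of that day, whereas on day 28 the controls lay within the OVA range. None of the 4 genes separated OVA from control arrays at day 28, where 42.2% of all features did (19.1% higher, 23.1% lower). Groups did not overlap at day 14 in 22.4% of all features, and in 7.51% with the OVA arrays lower. The means were -3.97 ± 0.26 over the OVA arrays (SD, n = 4) and -3.22 ± 0.52 over the control arrays (SD, n = 2) of day 14, a difference of -0.76 ± 0.34 (SE, interval -1.49 to -0.02). It did not pass over all features (unadjusted p = 0.0449, adjusted p = 0.338, limma). The difference was -0.39 without control day 14 replicate 2 and -1.13 without control day 14 replicate 1. With normexp background correction it was -0.18 and did not pass. Normexp was run on the median signal with an offset of 50 units added, whereas the processed signal of this probe was 13.7 to 78.2 units. An added constant of that size sets much of the log2 value of a dim probe, so the normexp values bear little on Mirt2.

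At day 28 Mirt2 averaged -3.31 ± 0.54 over the OVA arrays (SD, n = 4) and -3.44 ± 0.54 over the control arrays (SD, n = 2), a difference of 0.13 ± 0.34 (SE, adjusted p = 0.832, limma) with an interval of -0.60 to 0.87. OVA spleens of day 28 were above those of day 14 by 0.67 ± 0.27 (SE, interval 0.07 to 1.27), or 1.59-fold, short of the threshold (adjusted p = 0.0809, limma). It passed without OVA day 28 replicate 2 (0.88, adjusted p = 0.0292, limma) and with array position as a block (0.67, adjusted p = 0.0396). With normexp, whose offset of 50 units is of the size of this probe's signal, it was -0.10 (adjusted p = 0.505). Controls of day 28 differed from those of day 14 by -0.22 ± 0.39 (SE, adjusted p = 0.88, limma). The OVA effect at day 28 minus that at day 14 was 0.89 ± 0.47 (SE, adjusted p = 0.299, limma), with an interval of -0.15 to 1.93. It was 0.03 with normexp, 0.50 without control day 28 replicate 2, 0.52 without control day 14 replicate 2 and 1.38 with array position as a block, none past the threshold.

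The Mirt2 probe had 13.7 to 78.2 signal units and a scanner error of 11.2% to 52.1% on its 1 spot. It was well above background on every array except OVA day 14 replicate 2, the array with the lowest share of such spots. Its SD within groups was 0.45, above that of 94.9% of features (median 0.17), so its intervals were the widest of the 4 genes. The order of its means ran from control day 14 through OVA day 28 and control day 28 to OVA day 14, with the arrays of neighbours overlapping. Of 75 annotated genes within 500 kb of Mirt2, 2 lncRNAs were tested: Gm35739 was higher in OVA than in control spleens of day 28 by 0.49 (adjusted p = 0.0129, limma), and Gm34851 differed by 0.16 (adjusted p = 0.795). At day 14 neither passed, with 0.26 for Gm35739 and -0.98 for Gm34851. Between OVA spleens of day 28 and day 14, Gm35739 rose by 0.34 (adjusted p = 0.0111, limma) and Gm34851 differed by -0.10 (adjusted p = 0.818). The shares of all features called higher were 7.5% for OVA against control at day 28 and 15.8% between the OVA groups.

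AW112010 had levels of 3.41, 3.43, 3.33 and 3.28 in OVA spleens of day 28, against 3.82, 4.07, 3.68 and 3.66 in OVA spleens of day 14. All arrays of day 28 lay below all of day 14, as they did in 19.6% of all features, beside 16.8% in which they lay above (36.4% in all). The means were 3.36 ± 0.07 (SD, n = 4) at day 28 and 3.81 ± 0.19 (SD, n = 4) at day 14, so AW112010 fell by 0.44 in log2 terms (SE 0.14, interval -0.76 to -0.13, adjusted p = 0.0329, limma), a 1.36-fold difference. In this comparison 17.5% of features were called lower.

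The sign was negative under each scaling run, whereas the unscaled signals ran the other way. Before scaling, the AW112010 signal was 5210, 5473, 4865 and 5353 units on the OVA arrays of day 28 and 4050, 4502, 3636 and 3626 units on those of day 14, thus higher at day 28. Over the 8 spike-in controls used, 5 were lower and 3 higher at day 28 after scaling, from -0.44 to 0.20, and scaling on them gave -0.34 ± 0.16 for AW112010 (SE, adjusted p = 0.134, limma). These arrays lie on different slides, and slide and day cannot be told apart here. The spots around AW112010 departed by -0.01, -0.04, -0.04 and -0.09 on the OVA arrays of day 28 (log2, median per array). On those of day 14 they departed by 0.11, 0.02, 0.05 and -0.03. Whether this contributes to the fall of AW112010 was not tested.

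The adjusted p lay near the threshold, and the call was lost when any 1 of the OVA arrays of day 28 was left out. It did not pass without OVA day 28 replicate 1 (-0.46, adjusted p = 0.057, limma), replicate 2 (-0.47, adjusted p = 0.0529), replicate 3 (-0.43, adjusted p = 0.0731) or replicate 4 (-0.42, adjusted p = 0.0715). Nor did it pass without OVA day 14 replicate 1 (-0.44, adjusted p = 0.063) or replicate 2 (-0.35, adjusted p = 0.087). In all 24 alternatives the difference stayed negative, from -0.49 to -0.27, and it passed in 14 of them. These are not independent checks, because many of the alternatives cannot move the estimate. Changed filters, blocks for replicate or array position, and leaving out a control array altered its SE or adjusted p but not the value of -0.44. Fits without a control array are among those that passed, although no control enters this difference.

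**Figure D4:**
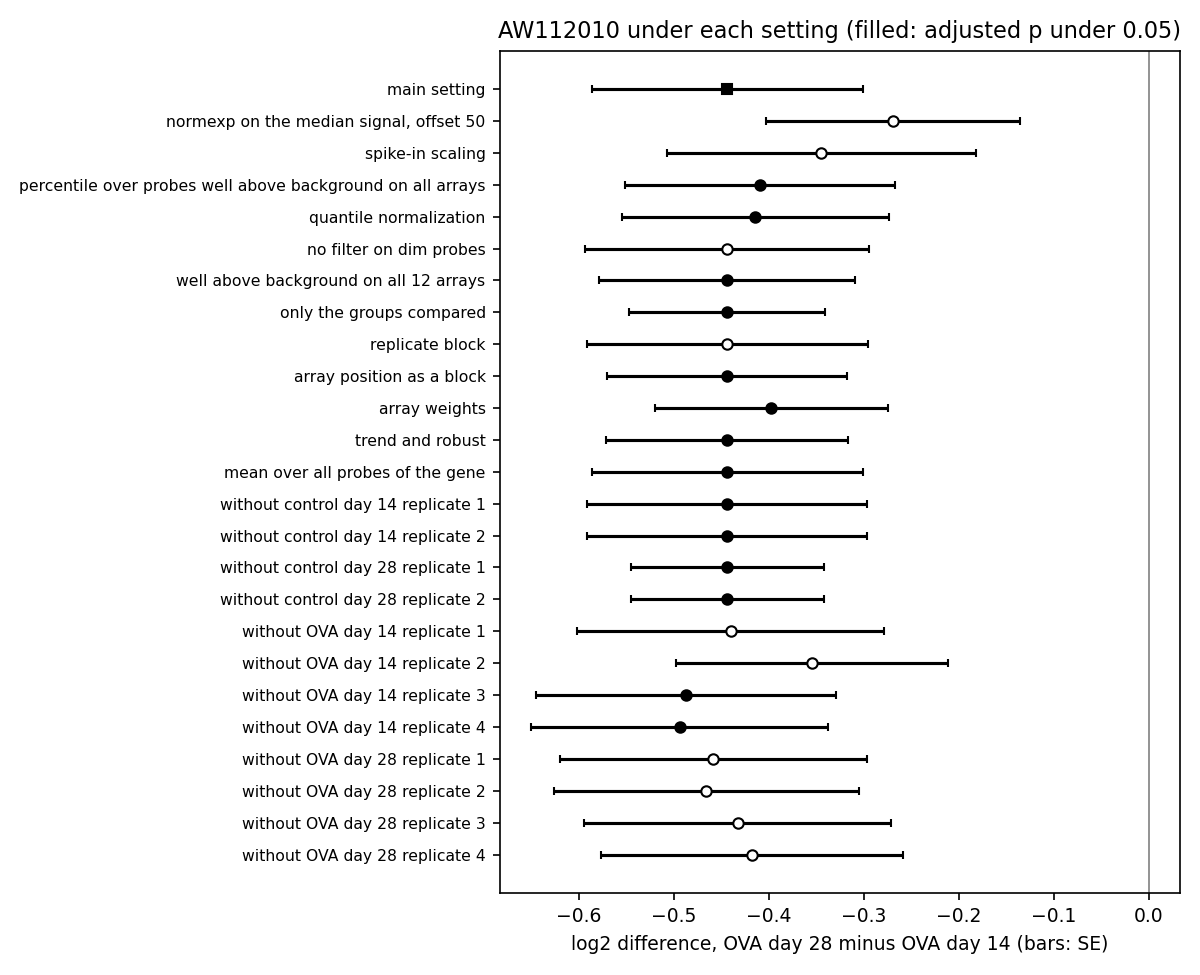
log2 difference of AW112010, OVA day 28 minus OVA day 14, with its SE (bars) in the main setting (square) and under 24 alternatives (circles); filled symbols have an adjusted p under 0.05. All values lie below 0, between -0.49 and -0.27, and 14 of the 24 alternatives passed. Many of the alternatives cannot move the estimate and alter only its SE or adjusted p.

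Against saline, AW112010 had no difference past the threshold. On day 14 all 4 OVA arrays lay above the control levels of 3.50 and 3.56, which 14.8% of all features showed. OVA spleens averaged 3.81 ± 0.19 (SD, n = 4) and controls 3.53 ± 0.04 (SD, n = 2), a difference of 0.28 ± 0.17 (SE, adjusted p = 0.505, limma) with an interval of -0.11 to 0.66. With spike-in scaling this was 0.03 (adjusted p = 0.923). On day 28 the control levels were 3.66 and 2.96, on both sides of the OVA arrays. OVA spleens averaged 3.36 ± 0.07 (SD, n = 4) and controls 3.31 ± 0.50 (SD, n = 2), a difference of 0.06 ± 0.17 (SE, interval -0.33 to 0.44, adjusted p = 0.864, limma). It was 0.41 without control day 28 replicate 1 and -0.29 without replicate 2, so the sign was set by which control was kept.

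Controls of day 28 differed from those of day 14 by -0.22 ± 0.20 in AW112010 (SE, adjusted p = 0.732, limma), and the OVA effect at day 28 minus that at day 14 was -0.22 with an interval of -0.76 to 0.32 (adjusted p = 0.638). The day difference is therefore not shown to differ between OVA and saline spleens. The order of the means ran from OVA day 14 through control day 14 and OVA day 28 to control day 28, and among neighbours in that order the arrays overlapped for OVA day 28 and control day 28 only. The arrays of control day 28 lay on both sides of those of control day 14. Control day 14 and OVA day 28 were not compared by a test. The probe read 2454 to 5473 units on its 1 spot. No gene within 500 kb of AW112010, the Ms4a family included, had a named probe.

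**Figure D5:**
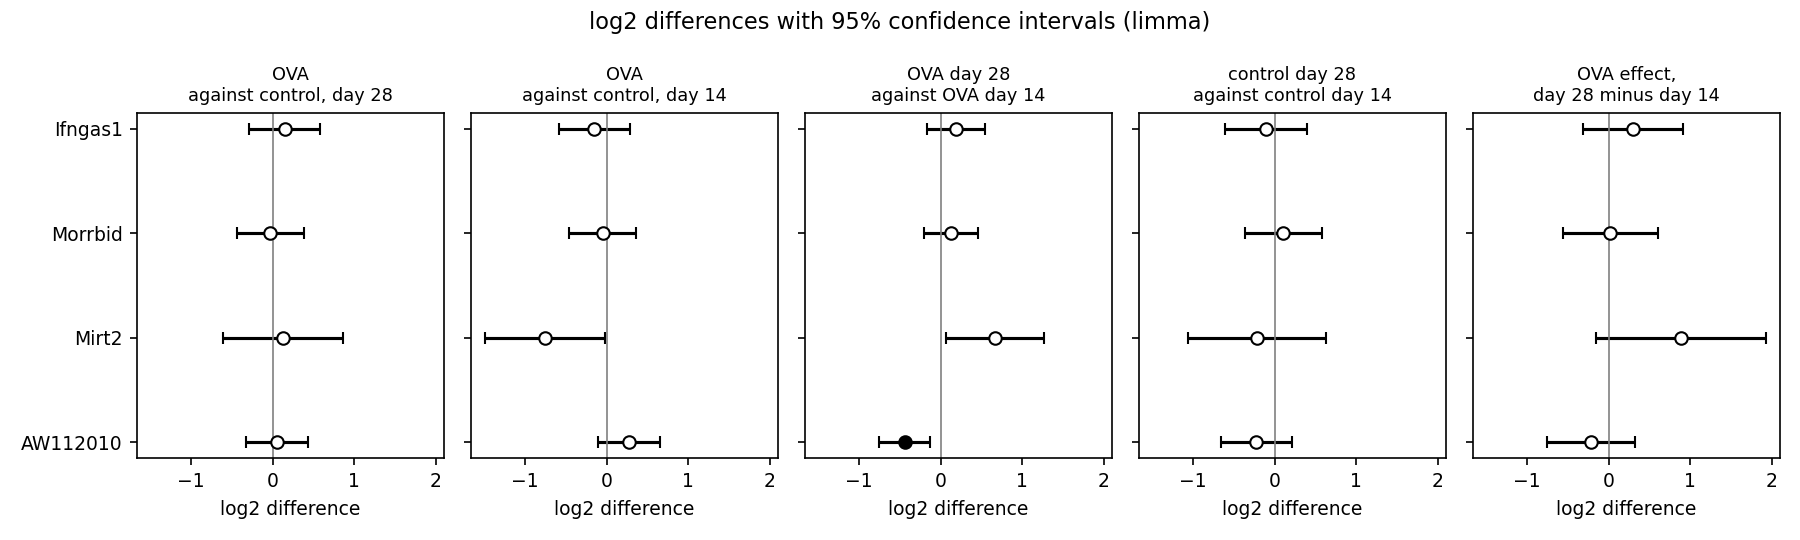
log2 differences (points) and 95% confidence intervals (bars) of the 4 genes in the 5 comparisons; the filled point has an adjusted p under 0.05. The filled point is AW112010 in OVA day 28 against OVA day 14, and the intervals of Mirt2 are the widest.

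OVA spleens of day 28 relative to those of day 14 had 0.67 in Mirt2, 0.19 in Ifngas1, 0.12 in Morrbid and -0.44 in AW112010 (log2 differences), and only the last passed. The within-group SD was 0.25 in Ifngas1, 0.23 in Morrbid and 0.22 in AW112010, above that of 76.0%, 71.9% and 66.9% of features.

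Among 161 tested genes with a name other than the Gm, LOC, Rik or clone type, those with the most similar profile over the 12 arrays were found for each gene. The highest Pearson r with AW112010 was 0.81 for Snhg3, a host gene of small nucleolar RNAs, followed by Rbm3os (0.75) and Mhrt (0.70). For Ifngas1 they were a non-coding transcript of Spn, the gene of the leukocyte surface protein CD43 (0.73), Arhgap27os3 (0.64) and Selenok-ps1 (0.60). For Morrbid they were the imprinted lncRNA Peg13 (0.68), Carmn (0.55) and Snhg18 (0.55). For Mirt2 they were Snhg8 (0.61), Zfp862-ps (0.55) and Zeb2os (0.53), which lies opposite the transcription factor gene Zeb2. The arrays share slides and scaling, and the highest of 161 values is high by choice, so these values are descriptions.

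Of 37 other non-coding RNAs listed as known in immune or blood cells, 13 had a named probe and 12 were tested. For OVA against control, 1 of the 12 passed at day 28, where 14.2% of all features did, and none at day 14, where 0.0607% did. The median differences of the list were 0.04 at day 28 and 0.08 at day 14, beside -0.03 and 0.03 over all features. Short of the threshold at day 14 were, among others, Bach2os at -0.58 ± 0.19 (SE, adjusted p = 0.227, limma) and Lncpint at 0.45 ± 0.12 (SE, adjusted p = 0.151). The gene that rose was Zeb2os, by 0.84 ± 0.16 (SE, adjusted p = 0.00891, limma), while Bach2os, beside the lymphocyte repressor gene Bach2, differed by -0.44 ± 0.19 (SE, adjusted p = 0.148). In OVA spleens of day 28 against day 14, Zeb2os rose by 1.20 (adjusted p = 0.000118, limma) and 2 genes fell, the imprinted lncRNA Meg3 by 0.29 (adjusted p = 0.0395, limma) and Lncpint by 0.29 (adjusted p = 0.0356). These are 3 of 12, where 33.3% of all features were called, and the list's median was 0.06, beside -0.04 over all features. For the difference between days in the OVA effect 1 of the 12 passed, where 3.04% of all features did. It was Zeb2os, at 1.22 ± 0.23 (SE, adjusted p = 0.0252, limma), with an OVA difference of -0.37 at day 14 (adjusted p = 0.327, limma). None of 27 protein-coding partners of the 4 lncRNAs, from Ifng and Bcl2l11 to Traf6 and Il12b, had a named probe.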

How the data were processed

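RNA of 12 spleen samples was labelled with Cy3 and read on 12 single-colour Agilent arrays. Per the file headers the authors made the deposited intensity values (processed signal, median signal, background and spot flags, other columns of the same files) with Agilent Feature Extraction 11.5.1.1; the submitters' processing notes name version 9.1. The intensity is linear and not scaled between arrays. From it, log2 values were computed here, each array's 75th percentile over 175906 non-control spots was subtracted, outlier spots were left out and spots of a probe averaged. The deposited table of processed values holds catalogue probes and was not used.

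Probes were named by RefSeq accession without version (4654 of 13009 RefSeq probes, GRCm38.p6). The filter kept 72515 of 97095 features, those with all arrays of 1 or more groups well above background. All 12 arrays entered 1 limma model (limma 3.58.1, R 4.3.3) with 4 groups and 8 residual degrees of freedom; adjusted p-values are Benjamini-Hochberg values over all features, with 0.05 as threshold. The fit was run on simulated data with independent noise and no slide effect, which cannot speak to differences between the slides. The number of arrays limits the precision.

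The genes, the gene lists, the tests and the alternatives were chosen with earlier results of these data known. Named were the 4 lncRNAs in every comparison, the 3 most correlated named genes for each, tested neighbours within 500 kb, and listed non-coding RNAs past the threshold together with Zeb2os and Bach2os.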

Additional observations from a re-analysis of the deposited data

How the results depend on the processing

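Of the 20 results on the 4 genes, 18 passed in none of their 22 to 24 alternatives. The call of AW112010 in OVA day 28 against OVA day 14 was lost with normexp (-0.27), spike-in scaling (-0.34), no filter on dim probes (-0.44) and the replicate block (-0.44, adjusted p = 0.0515, limma), and ranged from -0.49 to -0.35 with 1 array left out. In the same comparison Mirt2 passed with array position as a block (0.67) and ranged from 0.44 to 0.88 with 1 array left out. Signs were kept throughout in 4 of the 20 results, and in the others turned in 1 to 6 alternatives, none of them past the threshold; the causes were not tested. Mirt2 has no value under the filter on all 12 arrays, which leaves it out. Spike-in scaling moved the median of all features at day 14 to -0.21, against 0.03 in the main setting. Among features called, the share higher was 7.28% with spike-in scaling and 90.9% in the main setting at day 14, and 71.6% and 47.5% between the OVA groups (20.8% with normexp). At day 28 it was 23.2% with normexp and 53.0% in the main setting. For the difference between days it was 97.3% with spike-in scaling, 16.1% with normexp, 80.8% with the percentile over bright probes and 57.6% in the main setting.

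Labels number the spleens 1 to 4 in each OVA group and 1 to 2 in each control group. Deviations of equally numbered OVA arrays of days 28 and 14 had correlations of -0.03, -0.05, -0.02 and 0.08 over features, so the numbers were not taken to pair the OVA arrays. Equally numbered control arrays, and OVA with control arrays, were not checked. With the replicate block the counts of features called were 6833 at day 28, 0 at day 14 and 497 for the difference between days.

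Counts of features called were, in the main setting, 10265 for OVA against control at day 28, 44 at day 14, 24177 for OVA day 28 against day 14, 1 for the controls and 2202 for the difference between days. With normexp they were 27347, 168, 46807, 3 and 20794. With spike-in scaling they were 6514 at day 28, 453 at day 14 and 2 in controls. With no filter they were 6009, 2 at day 14 and 397 for the difference between days. With probes well above background on all arrays they were 231 at day 14, 3 in controls and 3775 for the difference. The percentile over such probes gave 12 at day 14, and quantile normalization 146 at day 14 and 2 in controls. Array position as a block gave 4260 at day 28, 2 at day 14, 0 in controls and 0 for the difference. Array weights gave 0 at day 14, 0 in controls and 501 for the difference, trend and robust 208, 2 and 4221, and only the groups compared 0 at day 14 and 0 in controls. With 1 array left out the ranges were 2057 to 12490 at day 28, 5 to 1983 at day 14, 18612 to 26158 between OVA groups, 1 to 1613 in controls and 363 to 6080 for the difference. Leaving out a control leaves 1 on that day, assumed to vary like the other groups.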
